A study of Mus musculus with 15 samples.

Results

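Mouse bone marrow-derived macrophages (BMDMs) that had been given poly(I:C) for 6 h were compared directly with BMDMs that had been given CL075 for 6 h. The comparison takes the 5 poly(I:C) libraries and the 5 CL075 libraries, 10 of the 15 RNA-seq libraries of the series, and every gene that the tables of both treatments hold under the same identifier (25814 genes). The poly(I:C) group was treated at 10 µg/ml and the CL075 group at 4 µM, and the 5 control libraries are given here only as the background level of each gene. All cells were wild-type C57BL/6 and came from the leg bones of adult mice. They were grown for 6 days with 10% fetal bovine serum, 50 µM β-mercaptoethanol and 20% medium conditioned by L929 cells, a fibroblast line that releases macrophage colony-stimulating factor. Each ligand was used at 1 dose and 1 time, in mass per volume for poly(I:C) and in molarity for CL075, so the comparison is of these 2 preparations as used. Nothing in the sources states whether the libraries of a group came from separate animals, so the p-values measure the spread between these libraries, which may be technical.

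Poly(I:C) is a synthetic double-stranded RNA. In endosomes it is bound by TLR3, which signals through the adaptor TRIF (gene Ticam1), and in the cytosol by MDA5 (Ifih1) and related helicases, which signal through MAVS. CL075 is a thiazoloquinoline small molecule that activates mouse TLR7, which signals through MyD88. Both routes reach NF-kB and MAP kinases. TRIF and MAVS activate IRF3 and so the gene of interferon-β, whose receptor turns on the interferon-stimulated genes through STAT factors and IRF9. MyD88 in macrophages is best known for inflammatory cytokines such as interleukin 1.

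The libraries held 26530525 to 32487565 counts with poly(I:C), 21816291 to 32042680 with CL075 and 25661175 to 31159953 in control cells. Levels are CPM, counts relative to the library total after scaling by TMM factors, which were 0.686 to 0.724 with poly(I:C), 1.04 to 1.10 with CL075 and 1.31 to 1.37 in control cells. Macrophage markers were abundant in both treated groups. Lyz2, which encodes lysozyme, averaged 24997 ± 1094 CPM with poly(I:C), 23738 ± 1654 with CL075 and 25298 ± 1281 in control cells (mean ± SD, n = 5 each, as everywhere below), and was not called between the ligands. Of 14 macrophage markers 6 were called higher with poly(I:C) and 2 lower, beside 23.6% and 24.5% of all genes tested. This balance depended on the scale, with 3 higher and 3 lower with upper-quartile factors, 2 and 4 with Hprt and 2 and 5 with library totals. The summed level of these markers was 44960 to 46940 CPM with poly(I:C), 39150 to 43710 with CL075 and 37000 to 39960 in control cells. The T cell gene Cd3e (at most 0.0469 CPM), the dendritic cell genes Flt3, Zbtb46 and Siglech (at most 0.89) and the neutrophil gene Ly6g (at most 0.152) were near 0 in every treated library, but other genes of their lists were not. Cd4, which made up most of the summed T and NK cell genes, averaged 68.3 ± 5.08 CPM with poly(I:C) and 41.5 ± 3.95 with CL075 and was called higher (log2 difference 0.72 (SE 0.07)), though not on the scales of upper-quartile factors, Hprt or library totals. Summed levels of dendritic cell markers also moved with the ligand, to 787 to 868 CPM with poly(I:C) and 312 to 408 with CL075 for 8 plasmacytoid dendritic cell genes, carried by Bst2 and Tcf4, and to 26.9 to 35.8 and 11.6 to 21.0 CPM for 10 conventional dendritic cell genes, among which Clec9a had 10.7 to 14.5 CPM with poly(I:C) and 0.0423 to 0.23 with CL075. Their part in the results was not tested. The 8 erythroid genes summed to 39.9 CPM in poly(I:C) replicate 3, to 28.5 and 29.1 CPM in CL075 replicates 2 and 3 and to at most 0.515 CPM in the other treated libraries. Without these 3 libraries 2686 genes were called higher and 2786 lower in the comparison below, an alternative chosen after the data were seen. The mRNAs of the mitochondrial genome took 2.53 ± 0.142% of the counts with poly(I:C) and 3.09 ± 0.121% with CL075, and the 100 most abundant genes took 34.7 ± 0.469% and 29.2 ± 0.597%. Each of these shares differed with p = 0.00794, the smallest that an exact two-sided permutation test of 5 against 5 libraries allows, and adjusted p = 0.0198 over 5 measures. Total counts did not pass the same exact permutation test (p = 0.6825).

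Poly(I:C) and CL075 left many of the expressed genes at different levels. Of 11360 genes tested, 2682 were called higher with poly(I:C) (23.6%) and 2780 lower (24.5%), so that 48.1% were called. A call needed an adjusted p under 0.05 from edgeR's quasi-likelihood test, a fold over 1.5 and a mean deposited TPM over 0.5 in either group. The libraries of the groups did not overlap in 5278 of the 5462 called genes. Among all genes tested they did not overlap in 68.4%, with poly(I:C) above in 33.9% and below in 34.4%. The 2 directions differed in size more than in number. The difference exceeded 8-fold for 453 higher genes and 102 lower genes, and it exceeded 16-fold for 261 and 34. The genes called higher took 54.6 ± 0.433% of all counts with poly(I:C), 23.6 ± 0.962% with CL075 and 22.4 ± 0.726% in control cells. Those called lower took 6.37 ± 0.139% with poly(I:C), 20.7 ± 0.654% with CL075 and 16.4 ± 0.326% in control cells. These 2 directions follow from how the genes were chosen. Against control, in a fit that shares its 5 control libraries between both ligands, poly(I:C) gave calls for 25.8% of the genes upward and 30.3% downward, and CL075 for 17.6% and 20.9%.

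**Figure D1:**
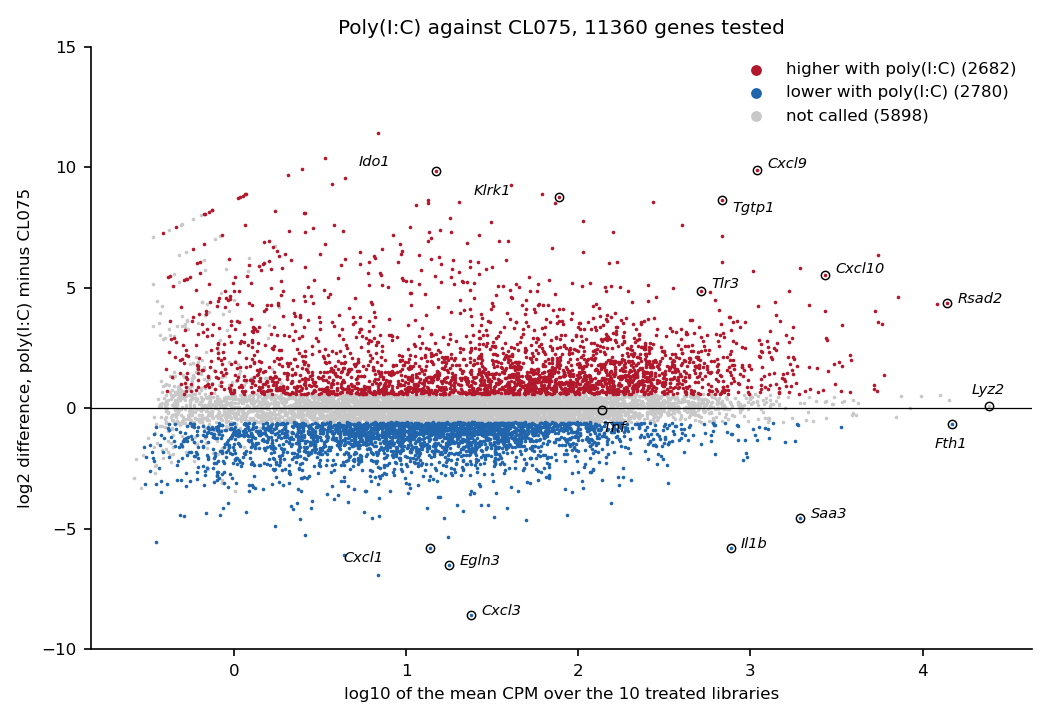
Each point is one of the 11360 genes tested, with the log10 of its mean CPM over the 10 treated libraries on the x axis and the log2 difference of poly(I:C) minus CL075 on the y axis. Red points are the 2682 genes called higher in poly(I:C) cells, blue points the 2780 called lower and grey points the 5898 not called, and the red cloud reaches further from 0 than the blue one.

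The balance of the directions depended on the scale on which the libraries were compared. TMM put the median log2 difference of all tested genes at -0.01 and DESeq2's size factors (RLE) at 0.02. The median was -0.19 with upper-quartile factors, -0.27 when the transcript of Hprt set the scale and -0.60 with the library totals. The higher genes made up 49.1% of the calls with TMM, 50.5% with RLE, 39.1% with upper-quartile factors, 35.1% with Hprt and 22.4% with library totals. The sources name no RNA standard that would give the amount of mRNA per cell, and fewer cells that express a gene cannot be told apart from less RNA of that gene per cell. The differences given below are on the TMM scale and are relative to the other genes.

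**Figure D2:**
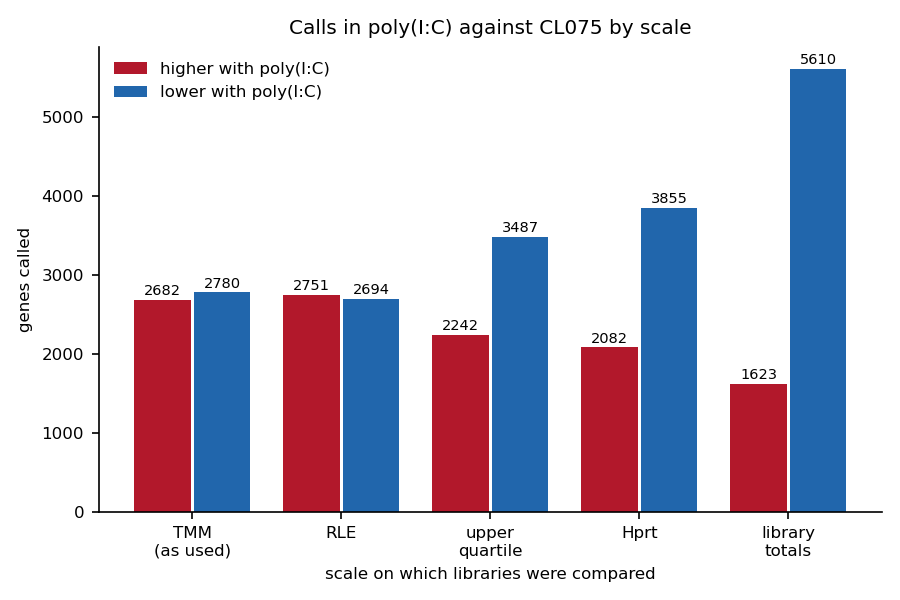
Bars give the number of genes called higher (red) and lower (blue) with poly(I:C) than with CL075 on each of 5 scales, with the number above each bar. The counts are nearly equal with TMM (2682 and 2780) and with RLE (2751 and 2694), and lower calls outnumber higher ones with upper-quartile factors, Hprt and library totals (1623 and 5610).

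Among called genes with a mean of at least 10 CPM over the treated libraries and no overlap of the groups, those of largest fold included chemokines for T cells and GTPases on the poly(I:C) side and attractants of neutrophils and Il1b on the CL075 side. Cxcl9, a chemokine for activated T cells, had 1960.2, 1965, 2411, 2058 and 2591 CPM in the poly(I:C) libraries, against 1.90, 1.91, 2.72, 1.86 and 3.07 CPM in the CL075 libraries. Every poly(I:C) library lay far above every CL075 library, and the log2 difference was 9.88 (SE 0.16, edgeR adjusted p = 1.2e-15). Ido1, which starts the breakdown of tryptophan, had 28.5, 28.6, 33.2, 27.9 and 31.8 CPM in the poly(I:C) libraries and 4 counts in all over the 5 CL075 libraries (log2 difference 9.86 (SE 0.18)). Others among the 15 largest folds under these limits were Sectm1a (9.25), Asap3 (8.66), the chemokine gene Cxcl11 (8.57), the chloride channel gene Clic5 (8.88) and Klrk1 (8.76), which encodes the natural killer cell receptor NKG2D. So were the GTPase genes Tgtp1 (8.63) and Gbp10 (8.53) and Gbp11 (8.56), which like Cxcl11 is annotated as a polymorphic pseudogene. The protease inhibitors Serpina3f (7.78) and Serpina3g (7.60), the vascular growth factor Angpt1 (7.75) and the Myc relative Mycl (7.52) were also among them. In the other direction Cxcl3, an attractant of neutrophils, had 0.253, 0.218, 0.0546, 0.0937 and 0 CPM in the poly(I:C) libraries, against 45.8, 70.3, 47.8, 41.2 and 31.5 CPM in the CL075 libraries, a log2 difference of -8.58 (SE 0.36, edgeR adjusted p = 1.1e-11). Its poly(I:C) libraries held 12 counts in all, and the control level was 0.163 ± 0.122 CPM. Egln3, an oxygen-sensing prolyl hydroxylase, had -6.52 (SE 0.22), then came Il1b (-5.81), Cxcl1 (-5.80), the nucleotide receptor gene P2ry2 (-5.33), Tmc3 (-4.66), the acute-phase gene Saa3 (-4.57), Slc35g1 (-4.52), Cxcl2 (-4.43) and the transcription factor genes Ets1 (-4.27) and Spic (-4.15). The glycogen synthase gene Gys1 (-4.13), Lancl3 (-4.04) and the adenylate kinase gene Ak4 (-4.001) were also among the 15 largest folds below CL075 under the same limits.

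In 16 of the genes called higher no CL075 library held a count. Faah, which breaks down endocannabinoids, had 12.4, 10.96, 14.6, 14.8 and 15.8 CPM in the poly(I:C) libraries and was thus at least 678-fold higher, with 3 counts over the CL075 group taken as the floor. Pcp4, a calmodulin-binding protein of neurons, was at least 329.5-fold higher, Meikin at least 245-fold and the opioid receptor gene Oprd1 at least 204-fold. These 4 were chosen after their values were seen. Among genes called lower, none was without a count in the poly(I:C) libraries.

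The regions before the start sites of some of these genes show which sequence motifs lie there. The 250 bases before the RefSeq start in GRCm38.p6 are printed 5′ to 3′ for 3 genes that were higher with poly(I:C) and for the 3 chemokine genes of largest fold below CL075. The 3 higher genes were picked without a fixed rule, and Cxcl9 and Ido1, which had larger folds, are not among them. Their matches thus do not stand for all genes called higher. They lie at chr5:92348890-92349139 (minus strand) for Cxcl10, chr12:26456453-26456702 (minus strand) for Rsad2, chr11:48992247-48992496 (minus strand) for Tgtp1, chr5:90890995-90891244 (plus strand) for Cxcl1, chr5:90903649-90903898 (plus strand) for Cxcl2 and chr5:90785851-90786100 (plus strand) for Cxcl3. Capitals mark matches on either strand to the interferon-stimulated response element (ISRE, GAAA followed by 2 bases of any kind and GAAA again), the interferon-γ-activated site (GAS, TTCNNNGAA) and the NF-kB consensus.
Cxcl10: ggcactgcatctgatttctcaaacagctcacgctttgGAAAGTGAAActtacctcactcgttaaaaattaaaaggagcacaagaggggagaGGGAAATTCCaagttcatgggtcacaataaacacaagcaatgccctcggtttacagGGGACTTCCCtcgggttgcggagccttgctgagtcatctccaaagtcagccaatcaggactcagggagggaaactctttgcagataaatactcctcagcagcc
Rsad2: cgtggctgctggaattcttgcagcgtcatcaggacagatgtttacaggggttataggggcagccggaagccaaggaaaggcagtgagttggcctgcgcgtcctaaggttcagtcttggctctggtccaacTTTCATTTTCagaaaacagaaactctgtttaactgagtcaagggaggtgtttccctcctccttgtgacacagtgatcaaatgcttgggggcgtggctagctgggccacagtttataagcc
Tgtp1: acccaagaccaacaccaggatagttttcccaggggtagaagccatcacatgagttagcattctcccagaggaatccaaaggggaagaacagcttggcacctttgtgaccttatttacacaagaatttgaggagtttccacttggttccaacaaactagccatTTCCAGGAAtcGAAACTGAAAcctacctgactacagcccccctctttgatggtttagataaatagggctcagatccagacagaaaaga
Cxcl1: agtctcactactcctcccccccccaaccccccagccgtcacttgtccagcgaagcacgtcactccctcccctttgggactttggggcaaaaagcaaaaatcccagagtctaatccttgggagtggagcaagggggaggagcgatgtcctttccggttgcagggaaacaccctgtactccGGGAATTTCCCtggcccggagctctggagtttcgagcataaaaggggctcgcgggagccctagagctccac
Cxcl2: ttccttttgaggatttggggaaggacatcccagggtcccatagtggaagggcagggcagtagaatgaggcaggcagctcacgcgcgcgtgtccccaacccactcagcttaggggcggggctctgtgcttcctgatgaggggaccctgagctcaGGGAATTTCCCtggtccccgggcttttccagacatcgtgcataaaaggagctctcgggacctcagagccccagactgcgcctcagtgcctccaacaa
Cxcl3: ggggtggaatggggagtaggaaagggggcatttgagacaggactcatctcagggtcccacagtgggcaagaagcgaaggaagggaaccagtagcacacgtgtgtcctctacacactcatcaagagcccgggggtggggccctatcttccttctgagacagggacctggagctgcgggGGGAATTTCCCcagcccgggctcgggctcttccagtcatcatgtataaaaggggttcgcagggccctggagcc
Cxcl10 held 1 ISRE match and 2 NF-kB matches, Rsad2 held 1 ISRE match, and Tgtp1 held 1 GAS and 1 ISRE match close to each other. Cxcl1, Cxcl2 and Cxcl3 each held the same NF-kB run, which matches on both strands, at 71, 97 and 73 bases before the start, and no ISRE or GAS match. In windows of 300 bases (250 before and 50 after a start), 3.44% of all 32851 mouse promoter windows held an ISRE match. The share was 6.65% for genes that poly(I:C) cells had at a higher level, 11.6% for those over 4-fold higher and 14.96% for those over 16-fold higher, against 2.19% for genes called lower, 1.93% for those over 4-fold lower and 2.66% for genes not called. NF-kB matches were in 5.97% of the windows of higher genes, 5.22% of lower genes and 4.97% of those not called. GAS matches were in 8.07%, 7.12% and 6.43%. Promoter windows were found for 8951 of the 11360 genes tested, and a gene with several starts counts once for each. A match is a description of the letters and not a sign that a factor binds there.

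Transcripts of type I interferons were at far higher levels with poly(I:C). Ifnb1, the gene of interferon-β, had 31.9, 32.1, 32.5, 31.1 and 29.8 CPM in the poly(I:C) libraries, against 0.254, 0.263, 0.492, 0.875 and 0.568 CPM in the CL075 libraries and 0.0267 ± 0.0191 CPM in control cells. All 5 poly(I:C) libraries lay within a narrow band above all CL075 libraries, and the log2 difference was 5.97 (SE 0.15, edgeR adjusted p = 4.8e-14). The interferon-α genes Ifna2, Ifna4 and Ifna5 had 240, 230 and 242 counts over the poly(I:C) libraries and 0 over the CL075 libraries, which makes them at least 116.5-fold, 112-fold and 117-fold higher. Of the interferon receptor genes only Ifngr1, a chain of the interferon-γ receptor, was called, and it was lower (24.8 ± 0.774 CPM with poly(I:C), 82.5 ± 6.14 with CL075 and 258 ± 10.5 in control cells). Ifnar1 and Ifnar2, the chains of the type I receptor, differed by -0.03 (SE 0.06) and -0.05 (SE 0.07) and were not called.

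Of the interferon-stimulated effector genes, 50 of 50 were called higher and 0 lower, with a median log2 difference of 2.83 beside -0.01 for all genes tested, and 48 were still called higher when library totals or Hprt set the scale. Rsad2 encodes viperin, an enzyme that makes a chain-terminating nucleotide. It lies on chromosome 12 of GRCm38 from 26442746 to 26456452 and had 25651, 29559, 27745, 23618 and 25431 CPM in the poly(I:C) libraries, against 972, 1261, 1432, 1549 and 1092 CPM in the CL075 libraries, a 20.9-fold difference and the largest in CPM of any gene. The lowest poly(I:C) library stood far above the highest CL075 library, while the CL075 group itself stood above control (202 ± 69.5 CPM). Cmpk2, a nucleotide kinase gene beside Rsad2, averaged 13844 ± 745 CPM with poly(I:C) and 556 ± 134 with CL075. Among the RNA-binding IFIT proteins, Ifit2 differed by 4.32 (SE 0.15), Ifit3 by 3.49 (SE 0.14), Ifit1 by 3.58 (SE 0.11) and Ifit1bl1 by 6.38 (SE 0.25). The guanylate-binding proteins and immunity-related GTPases, which attack vacuoles that hold pathogens, had some of the largest differences, with 4.05 for Gbp2, 4.89 for Gbp5, 7.16 for Gbp4, 6.29 for Gbp8 and 5.84 for Iigp1. Tgtp1 had 1319, 1384, 1531, 1229 and 1336 CPM in the poly(I:C) libraries, against 3.22, 2.43, 4.004, 3.86 and 3.61 CPM in the CL075 libraries. Its near-identical neighbour Tgtp2 averaged 2638 ± 166 CPM with poly(I:C) and 179 ± 51.9 with CL075, and how the counting shared reads between them is not given. The smallest differences were those of Ifitm3 (0.66 (SE 0.07)), which blocks the entry of viruses, Bst2 (0.82 (SE 0.09)), which tethers virus particles, and the oligoadenylate synthetase gene Oas1a (1.31 (SE 0.08)). Ifitm3 and Bst2 were the 2 genes not called with Hprt or library totals as the scale. Isg15, a ubiquitin-like modifier, averaged 1926 ± 122 CPM with poly(I:C) and 376 ± 91.0 with CL075, and the GTPase gene Mx1 averaged 6213 ± 461 and 566 ± 147 CPM. Rnf213, a large ubiquitin ligase that acts on pathogens, averaged 8607 ± 311 and 3258 ± 325 CPM. In 51 promoter windows found for 39 of these genes, 29 held an ISRE match (56.9%).

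Receptors that sense nucleic acids were also higher with poly(I:C). Of the Toll-like receptor genes, 9 of 12 were called higher and 1 lower (median 1.48). Tlr3, the receptor for double-stranded RNA, had 963, 1006, 1099, 947 and 986 CPM in the poly(I:C) libraries, against 29.5, 31.8, 39.1, 41.3 and 27.3 CPM in the CL075 libraries, a log2 difference of 4.89 (SE 0.11, edgeR adjusted p = 2.2e-14). The CL075 libraries overlapped the control level of 34.8 ± 5.15 CPM. Tlr7, the receptor for CL075 and for single-stranded RNA, averaged 551 ± 23.9 CPM with poly(I:C), 178 ± 18.4 with CL075 and 183 ± 17.1 in control cells. Tlr9, the receptor for unmethylated CpG DNA, averaged 328 ± 36.2 CPM with poly(I:C) and 26.0 ± 3.47 with CL075, on opposite sides of control at 59.1 ± 6.33 CPM. The lipopolysaccharide receptor gene Tlr4 differed by 1.33 (SE 0.06) and Tlr11 by 6.53 (SE 0.14). Tlr1, which senses bacterial lipopeptides together with TLR2, was the exception and was lower (143 ± 10.5 CPM with poly(I:C) and 379 ± 34.7 with CL075), while Tlr2 itself did not differ beyond the spread of its libraries (-0.02 (SE 0.08, edgeR adjusted p = 0.79)). Of the genes of cytosolic nucleic acid sensing, 17 of 18 were called higher and 1 lower (median 2.05), on all 5 scales. Ifih1, which encodes the double-stranded RNA sensor MDA5, averaged 3207 ± 304 CPM with poly(I:C), 314 ± 42.5 with CL075 and 119 ± 25.4 in control cells. Ddx58, which encodes RIG-I, differed by 2.11 (SE 0.08) and Aim2, a sensor of DNA, by 3.54 (SE 0.08). Tmem173, which encodes the DNA-sensing adaptor STING, averaged 138 ± 9.66 CPM with poly(I:C) and 11.8 ± 1.29 with CL075, again on opposite sides of control (52.3 ± 4.86 CPM). Mavs, the adaptor of RIG-I and MDA5, was the 1 lower gene, at 18.04 ± 0.962 CPM with poly(I:C), 34.8 ± 1.60 with CL075 and 58.8 ± 4.30 in control cells.

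The proximal signaling genes of Toll-like receptors were called about as often as all genes tested. Of 18 tested, 5 were called higher with poly(I:C) and 4 lower, near the shares of 23.6% and 24.5% over all genes, and the counts turned to 1 higher and 10 lower with library totals as the scale. Irak3, an inhibitory kinase relative that restrains MyD88 signaling, had 80.0, 65.9, 64.9, 68.8 and 70.0 CPM in the poly(I:C) libraries, against 589, 619, 612, 582 and 582 CPM in the CL075 libraries and 92.3 ± 2.12 CPM in control cells. Its CL075 libraries were thus raised far above both other groups, with a log2 difference of -3.09 (SE 0.06, edgeR adjusted p = 6.4e-15). Ticam2, the bridging adaptor TRAM, averaged 13.1 ± 0.699 CPM with poly(I:C) and 103 ± 5.54 with CL075, on opposite sides of control (39.2 ± 2.22 CPM). Myd88 itself was higher with poly(I:C) (462 ± 7.58 CPM, against 222 ± 25.4 CPM with CL075), as were the kinase gene Tbk1 (0.99 (SE 0.05)) and Traf5 (2.50 (SE 0.09)). Ticam1, the gene of TRIF, was not called (-0.31 (SE 0.07)). Among the chaperones and co-receptors, Cd180 (1253 ± 52.1 CPM with poly(I:C) and 159.9 ± 13.4 with CL075) and its partner Ly86 (1.95 (SE 0.08)) were higher, and Cd14 was not called (-0.41 (SE 0.06)).

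Transcription factors of the interferon response stood above CL075, and genes of NF-kB subunits and feedback inhibitors were called in both directions. Of the IRF, STAT and JAK genes, 13 of 19 were called higher and 1 lower (median 1.70). Irf1, an activator of interferon-γ-type genes, had 644, 713, 651, 665 and 666 CPM in the poly(I:C) libraries, against 63.1, 65.8, 70.6, 91.5 and 76.6 CPM in the CL075 libraries, and the CL075 libraries overlapped control (68.2 ± 6.03 CPM). Its log2 difference was 3.18 (SE 0.09, edgeR adjusted p = 1.5e-13). Irf7, the amplifier of interferon-α, differed by 2.49 (SE 0.12), Irf8, a lineage factor of macrophages, by 2.16 (SE 0.07), Stat2 by 1.73 (SE 0.06) and Jak2 by 2.27 (SE 0.08). Irf3 averaged 15.2 ± 0.541 CPM with poly(I:C), 22.2 ± 1.28 with CL075 and 21.6 ± 0.936 in control cells and was not called (-0.55 (SE 0.06)), with a fold just under the threshold, and on the scales of upper-quartile factors, Hprt and library totals it was called lower. Of the SOCS and cytokine feedback genes, 7 of 12 were called higher and 4 lower. Socs1, which blocks JAK kinases, averaged 70.7 ± 8.34 CPM with poly(I:C) and 2.09 ± 0.573 with CL075, while Socs3, which restrains signaling by interleukin 6 family receptors, was lower at 117 ± 25.6 CPM with poly(I:C) and 212 ± 28.8 with CL075. Of 22 genes of NF-kB subunits and feedback inhibitors, 8 were called higher and 4 lower (23.6% and 24.5% over all genes), and 3 were higher and 11 lower with library totals as the scale. The lower ones were Zc3h12a (-2.80 (SE 0.06)), an RNase that degrades cytokine mRNAs, Nfkbiz (-2.12 (SE 0.07)), a nuclear cofactor of NF-kB, and the A20-binding Tnip3 (-1.52 (SE 0.08)) and Tnip1 (-1.37 (SE 0.08)). The higher ones included Nfkbie (1.501 (SE 0.08)), the subunit gene Rel (1.33 (SE 0.08)) and Tnfaip3 (0.78 (SE 0.08)), which encodes A20. Rela (-0.01 (SE 0.06)), Nfkb2 (-0.12 (SE 0.06)) and Nfkbia (-0.52 (SE 0.07)) were not called.

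Of the early response transcription factors 11 of 31 were called higher and 10 lower, beside 23.6% and 24.5% of all genes. Myc, which drives growth, had 2.43, 2.67, 2.95, 1.499 and 1.93 CPM in the poly(I:C) libraries, against 29.0, 32.7, 30.8, 25.7 and 27.7 CPM in the CL075 libraries. The control level was 5.71 ± 1.17 CPM, between the ligands, and the log2 difference was -3.68 (SE 0.13, edgeR adjusted p = 1.0e-12). Cebpd (-1.85 (SE 0.11)), Fosl1 (-2.25 (SE 0.21)), Batf (-2.43 (SE 0.13)), Ets2 (-1.07 (SE 0.05)) and the stress factor gene Atf4 (-1.21 (SE 0.09)) were lower as well. Batf2 (4.11 (SE 0.10)), an interferon-γ-type factor, Nr4a3 (3.50 (SE 0.20)), Klf4 (3.02 (SE 0.09)), Mafk (2.57 (SE 0.08)), Crem (2.40 (SE 0.11)) and Atf3 (1.09 (SE 0.08)), which restrains cytokine genes, were higher. Jun (-0.01 (SE 0.05)), Fos (0.56 (SE 0.10)) and Cebpb (-0.49 (SE 0.08)) were not called, although Fos passed the fold threshold without CL075 replicate 1 (0.59) or 2 (0.66) and without poly(I:C) replicate 1 (0.59) or 4 (0.60). The MAP kinase phosphatase genes Dusp10 (3.46 (SE 0.09)) and Dusp5 (2.09 (SE 0.15)) were higher and Dusp16 (-1.16 (SE 0.07)) and Dusp6 (-1.52 (SE 0.15)) lower.

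Cytokine genes were not raised evenly by the ligands. Of 19 interleukins, growth factors and antagonists tested, 11 were called higher and 5 lower with poly(I:C). Il1b, which encodes interleukin 1β, lies on chromosome 2 of GRCm38 from 129364570 to 129371139 and had 25.2, 26.4, 36.5, 22.4 and 24.1 CPM in the poly(I:C) libraries, against 1177, 1602, 1911, 1494 and 1368 CPM in the CL075 libraries and 12.2 ± 3.49 CPM in control cells. It was 56.3-fold lower with poly(I:C), with no overlap of the groups (log2 difference -5.81 (SE 0.16, edgeR adjusted p = 1.2e-13)). Il1a (-2.74 (SE 0.19)), which encodes interleukin 1α, and Csf3 (-6.11 (SE 0.28)), the growth factor of granulocytes, were also lower, while Il1rn, the antagonist of the interleukin 1 receptor, was higher at 4735 ± 374 CPM with poly(I:C) and 1344 ± 255 with CL075. Il10, an anti-inflammatory cytokine, had 212, 215, 255, 232 and 232 CPM in the poly(I:C) libraries, against 16.001, 21.1, 29.3, 24.4 and 19.1 CPM in the CL075 libraries. The groups did not overlap (log2 difference 3.38 (SE 0.13, edgeR adjusted p = 3.0e-12)). Il27 (5.15 (SE 0.12)), Il15 (4.42 (SE 0.12)), which sustains natural killer cells, Il33 (5.72 (SE 0.23)), Csf1 (5.06 (SE 0.15)) and Il18bp (3.15 (SE 0.09)), the binding protein of interleukin 18, were higher as well. Il6 averaged 113 ± 9.65 CPM with poly(I:C) and 28.4 ± 5.78 with CL075, and Il12b, a subunit of interleukins 12 and 23, 23.1 ± 4.97 and 12.95 ± 2.29 CPM. Tnf had 145, 145, 113, 122 and 141 CPM in the poly(I:C) libraries, against 130.0, 147, 149.6, 153 and 129.8 CPM in the CL075 libraries. These groups overlapped, and the log2 difference of -0.09 (SE 0.08, edgeR adjusted p = 0.29) was within the spread of the libraries. Of the 12 TNF superfamily ligands, 8 were called higher and 1 lower. Tnfsf10, which encodes the death ligand TRAIL, averaged 1350.3 ± 90.3 CPM with poly(I:C) and 20.1 ± 3.97 with CL075, and the OX40 ligand gene Tnfsf4 differed by 5.77 (SE 0.16).

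**Figure D3:**
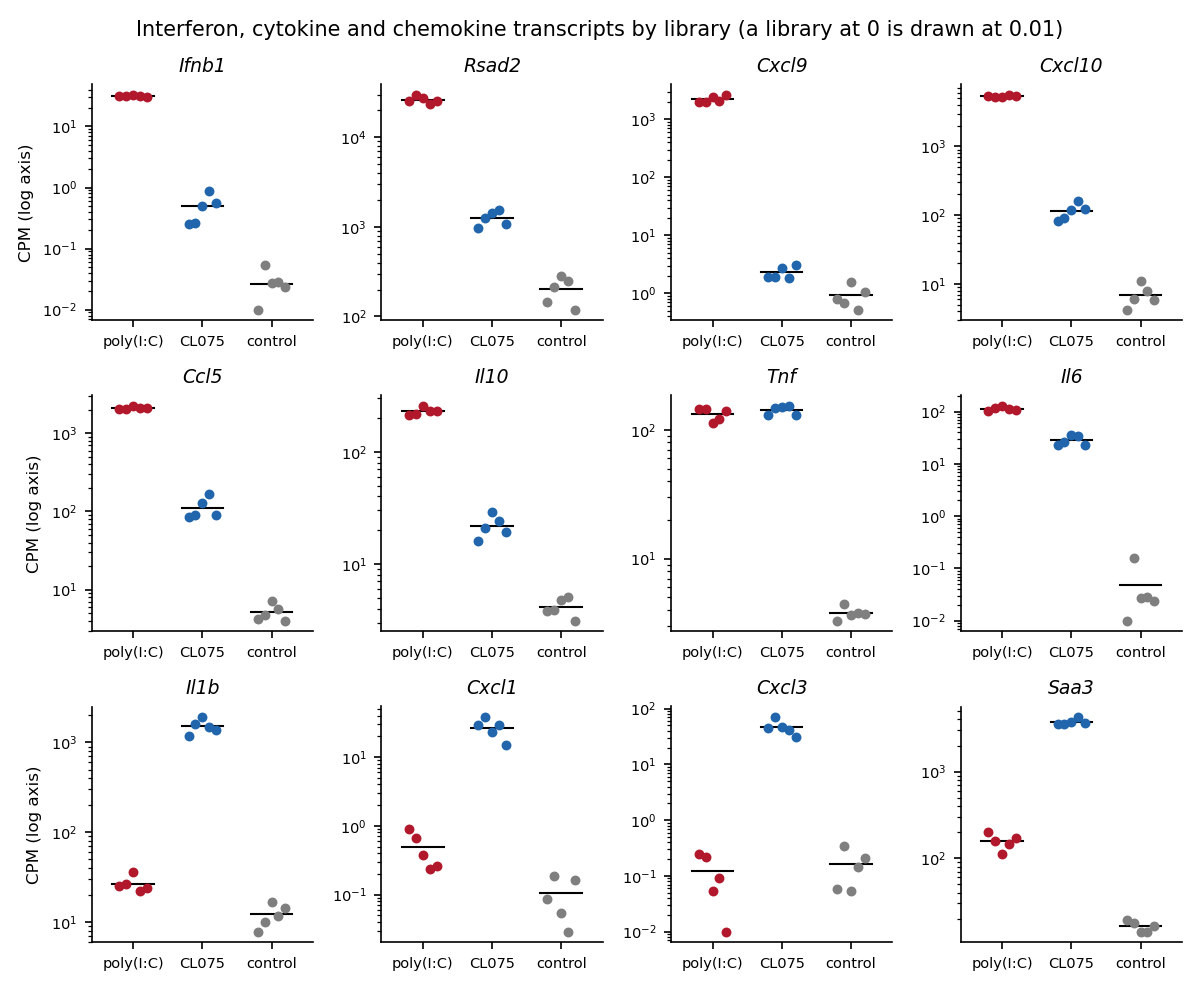
Each panel shows the CPM of 1 gene (log axis) in the 5 poly(I:C) libraries (red), the 5 CL075 libraries (blue) and the 5 control libraries (grey), with a bar at the group mean and a library at 0 drawn at 0.01. Ifnb1, Rsad2, Cxcl9, Cxcl10, Ccl5, Il10 and Il6 are higher with poly(I:C) in every library, Il1b, Cxcl1, Cxcl3 and Saa3 are higher with CL075 in every library, and Tnf overlaps.

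The CXC chemokines split into sets that were far higher and far lower with poly(I:C). Those that draw T cells and natural killer cells through CXCR3 were higher. Cxcl10 had 5337, 5262, 5156, 5547 and 5336 CPM in the poly(I:C) libraries, against 83.0, 89.5, 121, 160.4 and 122 CPM in the CL075 libraries (log2 difference 5.53 (SE 0.17, edgeR adjusted p = 2.7e-13)), and Cxcl11, which carries a frameshift in C57BL/6 mice, averaged 545 ± 52.3 and 1.42 ± 0.579 CPM. Those that draw neutrophils through CXCR2 were lower. Cxcl1 had 0.910, 0.654, 0.382, 0.234 and 0.258 CPM in the poly(I:C) libraries, against 29.4, 38.003, 22.9, 29.3 and 14.96 CPM in the CL075 libraries, and Cxcl2 had 11.3, 8.51, 4.64, 5.81 and 7.78 CPM against 149, 208, 172, 171 and 121 CPM. Both were still above control with poly(I:C), at 0.104 ± 0.0689 CPM for Cxcl1 and 0.985 ± 0.355 CPM for Cxcl2 in control cells, whereas Cxcl3 was not called between poly(I:C) and control. The platelet chemokine genes Ppbp (-0.99 (SE 0.22)) and Pf4 (-0.82 (SE 0.15)) were lower by less, and Cxcl16 (0.14 (SE 0.05)) was not called. The 6 genes lie in 2 clusters on chromosome 5, Cxcl3, Cxcl1 and Cxcl2 between 90786103 and 90905938 and Cxcl9, Cxcl10 and Cxcl11 between 92321347 and 92365485 of GRCm38. Of the CC chemokines, 7 of 12 were called higher and 1 lower. Ccl5, an attractant of T cells and monocytes, averaged 2102 ± 74.3 CPM with poly(I:C) and 112 ± 35.6 with CL075, and the monocyte attractants Ccl12 (3.06 (SE 0.18)), Ccl7 (2.59 (SE 0.19)) and Ccl2 (2.36 (SE 0.14)) were higher too. Ccl3 was not called (-0.22 (SE 0.08, edgeR adjusted p = 0.021)), and Ccl9 was lower (-0.66 (SE 0.08)). Saa3, an acute-phase protein, had 202, 158, 110.4, 146 and 169 CPM in the poly(I:C) libraries, against 3531, 3552, 3712, 4248 and 3638 CPM in the CL075 libraries and 16.3 ± 2.16 CPM in control cells.

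Some receptors for attractants and nucleotides showed large differences. Of 26 tested, 9 were called higher and 7 lower (5 and 13 with library totals as the scale), not far from the 23.6% and 24.5% over all genes. The P2Y receptors went apart. P2ry14, the receptor for UDP-glucose, had 180.1, 179.7, 181, 179 and 179.6 CPM in the poly(I:C) libraries, against 4.15, 3.29, 6.10, 6.53 and 4.66 CPM in the CL075 libraries and 18.1 ± 3.41 CPM in control cells. P2ry12 (5.22 (SE 0.14)) and P2ry13 (5.68 (SE 0.17)), receptors for ADP that lie beside it on chromosome 3, were higher as well. P2ry2, the receptor for ATP and UTP, had 0.556, 1.04, 0.873, 1.12 and 0.688 CPM in the poly(I:C) libraries, against 35.0, 32.1, 35.2, 35.8 and 33.8 CPM in the CL075 libraries and 3.60 ± 0.752 CPM in control cells. For P2ry2 and P2ry14 alike, the ligands stood on opposite sides of control. Fpr1, a receptor for bacterial formyl peptides, was lower at 262 ± 23.8 CPM with poly(I:C) and 975 ± 37.5 with CL075. Of the prostanoid and leukotriene genes, 3 of 16 were called higher and 9 lower. Ptges, the inducible prostaglandin E synthase, had 21.8, 18.2, 19.1, 17.8 and 18.9 CPM in the poly(I:C) libraries, against 253, 278, 368, 315 and 239.9 CPM in the CL075 libraries. Ptgs2, the inducible cyclooxygenase upstream of it, averaged 40.6 ± 11.6 CPM with poly(I:C) and 91.3 ± 27.0 with CL075.

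Genes of antigen presentation by MHC class I and of costimulation were mostly higher with poly(I:C). Of the MHC class I presentation genes, 16 of 18 were called higher and 0 lower (median 1.67), and so were all 5 immunoproteasome genes. Nlrc5, the transactivator of these genes, averaged 924 ± 25.2 CPM with poly(I:C), 156 ± 23.6 with CL075 and 55.8 ± 11.7 in control cells. The peptide transporter gene Tap1 differed by 2.39 (SE 0.09), the catalytic subunit gene Psmb9 by 2.28 (SE 0.11), and the chains H2-K1 and B2m by 0.99 (SE 0.06) and 0.98 (SE 0.07). H2-K1 and B2m were not called with library totals as the scale. Of 10 class II genes 4 were called higher and 0 lower, and H2-Ab1 (0.19 (SE 0.16)) and Cd74 (0.38 (SE 0.18)) were not called. Of the costimulatory and inhibitory ligands, 15 of 23 were called higher and 3 lower. Cd40, a receptor for T cell help, had 807, 789.7, 838, 848 and 851 CPM in the poly(I:C) libraries, against 54.1, 59.7, 77.7, 83.5 and 47.5 CPM in the CL075 libraries and 4.37 ± 0.234 CPM in control cells. Cd86, a ligand of CD28, averaged 922 ± 124 CPM with poly(I:C) and 118 ± 21.3 with CL075, and its CL075 libraries overlapped control (96.4 ± 15.5 CPM). Cd274, which encodes the inhibitory ligand PD-L1, averaged 2379 ± 93.0 and 447 ± 48.2 CPM. Vsir, which encodes the inhibitory ligand VISTA, and Sirpa, which receives the CD47 signal, were lower (-1.47 (SE 0.09) and -1.33 (SE 0.07)).

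Genes of apoptosis were higher with poly(I:C) or not called. Of the apoptosis and necroptosis genes, 18 of 29 were called higher and 0 lower (median 0.99), although 12 were higher and 4 lower with library totals as the scale. Apaf1, the scaffold of the apoptosome, had 435, 427, 428, 407 and 411 CPM in the poly(I:C) libraries, against 72.3, 67.7, 67.8, 69.2 and 66.7 CPM in the CL075 libraries. The control level of 81.6 ± 4.87 CPM lay between them, close to the CL075 libraries, and the log2 difference was 2.62 (SE 0.05, edgeR adjusted p = 2.1e-15). Casp8, the initiator of death receptors, averaged 722 ± 46.0 CPM with poly(I:C) and 168 ± 19.2 with CL075, and Mlkl, the effector of necroptosis, 405 ± 21.8 and 74.7 ± 13.2 CPM. The survival genes Bcl2l1 (0.50 (SE 0.09)) and Mcl1 (0.36 (SE 0.07)) were not called, and Cflar, an inhibitor of caspase 8, was higher (1.14 (SE 0.06)). Among inflammasome genes, Casp1 (2.44 (SE 0.10)), Casp4 (2.29 (SE 0.11)) and Gsdmd (1.32 (SE 0.09)), which forms the pores of pyroptosis, were higher. Nlrp3 was not called (-0.42 (SE 0.08)), and Nlrc4 was lower (-1.54 (SE 0.09)). The p53 target genes Mdm2 (2.31 (SE 0.07)) and Cdkn1a (1.68 (SE 0.10)) were higher, and Sesn1 (-2.28 (SE 0.07)) was lower.

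Enzymes of arginine metabolism differed in opposite directions. Nos2, the inducible nitric oxide synthase, had 892, 703, 559, 747 and 705 CPM in the poly(I:C) libraries, against 75.6, 93.9, 64.7, 95.2 and 36.8 CPM in the CL075 libraries and 0.408 ± 0.0790 CPM in control cells (log2 difference 3.30 (SE 0.21, edgeR adjusted p = 1.7e-09)). Arg1, which splits the same substrate into ornithine and urea, had 13.7, 19.1, 15.5, 13.4 and 12.8 CPM in the poly(I:C) libraries, against 157, 164, 149, 161 and 128 CPM in the CL075 libraries. Its poly(I:C) libraries overlapped control (13.9 ± 3.31 CPM), and the log2 difference was -3.35 (SE 0.10, edgeR adjusted p = 3.2e-13). Beside Ido1, the tryptophan pathway genes Kynu (31.2 ± 2.92 CPM with poly(I:C), 0.184 ± 0.0930 with CL075) and Kmo (5.44 (SE 0.10)) were higher. Acod1, which makes itaconate, was higher than in control cells (8.14 ± 1.43 CPM) with both ligands and 1.64-fold higher with poly(I:C), at 6736 ± 383 CPM with poly(I:C) and 4113 ± 374 with CL075. Ch25h, which makes 25-hydroxycholesterol, was higher (4.31 (SE 0.20)).

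Many genes that respond to low oxygen were lower with poly(I:C), and genes of glycolysis were more often called lower than higher. Of the hypoxia response genes, 0 of 18 were called higher and 10 lower (median -1.86), and none was higher on any of the 5 scales. Egln3 had 0.303, 0.600, 0.273, 0.234 and 0.473 CPM in the poly(I:C) libraries, against 38.9, 46.7, 29.0, 31.8 and 29.2 CPM in the CL075 libraries, with control between them (4.92 ± 2.82 CPM). The 250 bases before its start (chr12:54203875-54204124, minus strand, GRCm38.p6) hold 1 match, in capitals, to the core of the hypoxia response element (ACGTG, either strand), which is also part of the E-box CACGTG.
Egln3: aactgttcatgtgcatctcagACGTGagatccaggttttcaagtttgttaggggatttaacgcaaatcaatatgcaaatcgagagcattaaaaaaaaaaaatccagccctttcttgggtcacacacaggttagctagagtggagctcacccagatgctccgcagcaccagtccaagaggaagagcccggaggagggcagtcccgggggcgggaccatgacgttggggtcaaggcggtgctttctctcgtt
This core was in 13 of 21 promoter windows of the hypoxia response genes (61.9%), in 21.1% of the windows of genes called higher, 29.2% of genes called lower, 26.0% of genes not called and 19.6% of all windows. Bnip3, a mitophagy receptor, had 25.1, 26.8, 21.7, 19.3 and 22.2 CPM in the poly(I:C) libraries, against 196, 197, 192, 187 and 171 CPM in the CL075 libraries. Egln1 (-3.44 (SE 0.08)), Ero1l (-2.88 (SE 0.11)), Ndrg1 (-2.30 (SE 0.10)) and Adm (-4.31 (SE 0.17)), which encodes adrenomedullin, were lower as well. Hif1a, the oxygen-regulated factor itself, was not called (625 ± 50.2 CPM with poly(I:C), 849.9 ± 75.7 with CL075), nor were Vegfa (0.30 (SE 0.11)) and Pdk1 (0.10 (SE 0.06)). Of the glycolysis and pentose phosphate genes, 5 of 24 were called higher and 12 lower. The glucose transporter gene Slc2a1 averaged 46.7 ± 4.60 CPM with poly(I:C) and 218 ± 24.2 with CL075, the phosphofructokinase gene Pfkl 16.1 ± 2.69 and 120.1 ± 3.38 CPM, and the lactate exporter gene Slc16a3 35.9 ± 3.59 and 209 ± 12.1 CPM. The members that were higher were other isoforms or transporters, Hk1 (1.56 (SE 0.05)), Hk3 (2.12 (SE 0.09)), Pfkp (0.91 (SE 0.05)), Pfkm (0.82 (SE 0.14)) and Slc2a6 (2.58 (SE 0.13)).

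Antioxidant and iron genes were mostly lower with poly(I:C). Of the NRF2 antioxidant genes, a list that also holds Keap1, 2 of 19 were called higher and 13 lower (median -1.17). Gsr, glutathione reductase, had 33.0, 36.9, 28.8, 26.3 and 30.4 CPM in the poly(I:C) libraries, against 251, 269.8, 222, 225 and 251 CPM in the CL075 libraries and 26.1 ± 4.08 CPM in control cells (log2 difference -2.97 (SE 0.09, edgeR adjusted p = 1.9e-13)). Hmox1, heme oxygenase, had 396, 514, 301, 346 and 330.5 CPM in the poly(I:C) libraries, against 1579, 2030.1, 1335, 1535 and 1207 CPM in the CL075 libraries, and its poly(I:C) libraries overlapped control (395 ± 89.0 CPM). Slc7a11, the cystine importer, differed by -2.99 (SE 0.24), the glutathione synthesis gene Gclc by -2.56 (SE 0.20), Txnrd1 by -1.98 (SE 0.12) and the mitochondrial superoxide dismutase Sod2 by -1.32 (SE 0.06). Nfe2l2, which encodes NRF2, was not called (-0.19 (SE 0.08)), and Keap1, its inhibitor, was higher (1.51 (SE 0.06)). Of the iron and heme genes, 0 of 14 were called higher and 9 lower, among them Lcn2 (-3.25 (SE 0.19)), which binds bacterial siderophores, the transferrin receptor gene Tfrc (-1.54 (SE 0.09)), the transporter gene Slc11a1 (-1.41 (SE 0.05)) and the ferritin gene Fth1. The last averaged 11527 ± 1490.0 CPM with poly(I:C), 17923 ± 1816 with CL075 and 8799 ± 1003 in control cells. This was the largest CPM difference below CL075 of any called gene. Its fold of 1.55 was small, and without CL075 replicate 2 it lay under the fold threshold (log2 difference -0.58). Lcp1 (-0.77 (SE 0.06)), Tnfrsf1b (-1.36 (SE 0.08)), Eif4g2 (-1.39 (SE 0.06)), Rassf4 (-2.16 (SE 0.06)), Kctd12 (-1.86 (SE 0.08)) and Tgfbi (-1.23 (SE 0.08)) were also among the 10 called genes with the largest CPM difference below CL075. All of them were called higher than control with CL075. With poly(I:C), Tnfrsf1b and Eif4g2 were called higher than control, and Lcp1, Rassf4, Kctd12 and Tgfbi were not called against control.

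**Figure D4:**
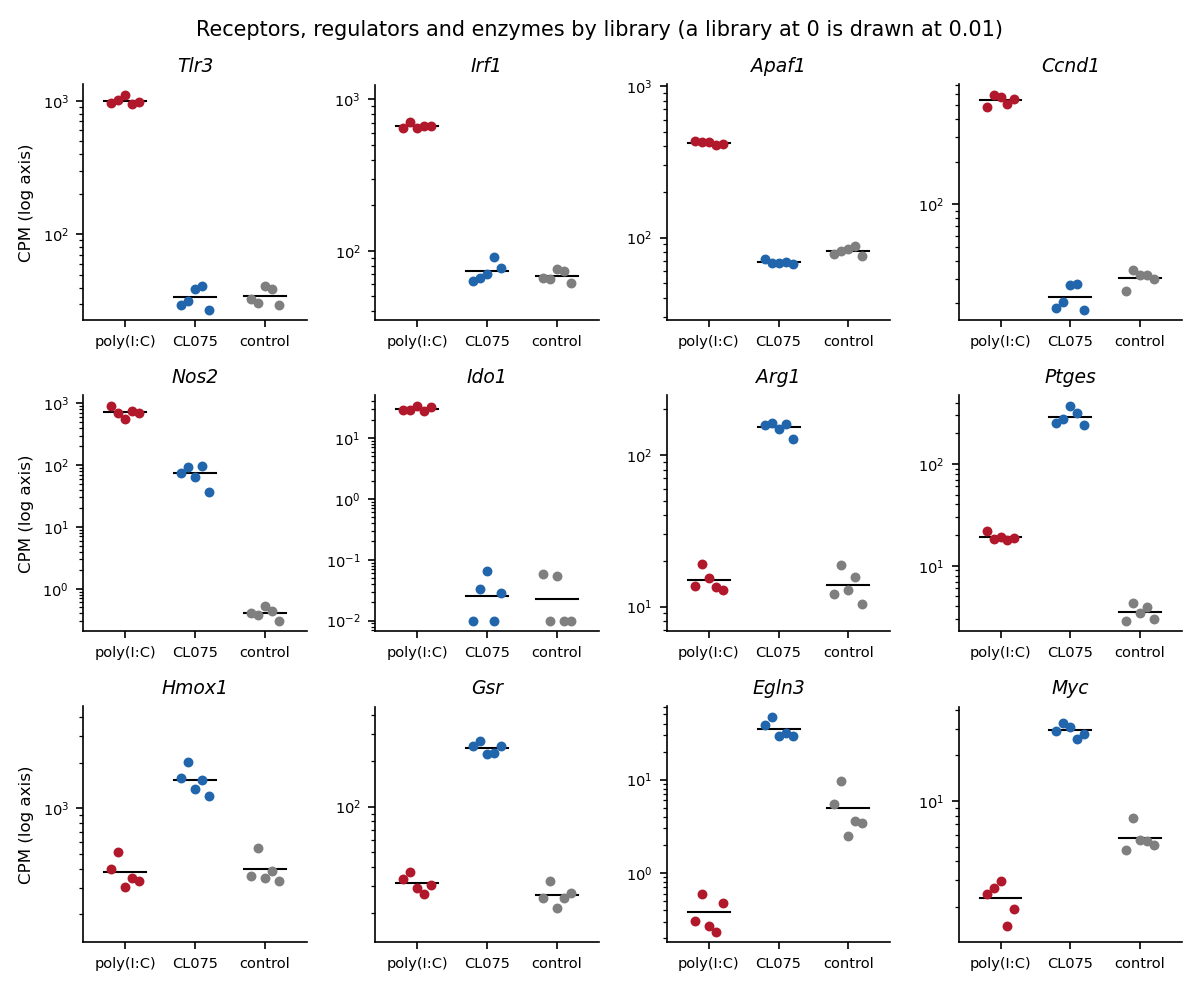
Each panel shows the CPM of 1 gene (log axis) in the 5 poly(I:C) libraries (red), the 5 CL075 libraries (blue) and the 5 control libraries (grey), with a bar at the group mean and a library at 0 drawn at 0.01. Tlr3, Irf1, Apaf1, Ccnd1, Nos2 and Ido1 are higher with poly(I:C) in every library, and Arg1, Ptges, Hmox1, Gsr, Egln3 and Myc are higher with CL075 in every library.

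Genes of cholesterol synthesis and of amino acid supply were lower or not called, apart from 2. Of the cholesterol synthesis genes, 0 of 23 were called higher and 12 lower (median -0.76). Stard4, which carries cholesterol, averaged 4.03 ± 0.505 CPM with poly(I:C), 43.8 ± 10.9 with CL075 and 70.7 ± 6.35 in control cells, and Sqle, the squalene epoxidase, 12.97 ± 1.93, 73.0 ± 17.9 and 85.9 ± 12.7 CPM. The cholesterol exporters went apart, with Abcg1 higher (393 ± 72.1 CPM with poly(I:C) and 39.7 ± 11.3 with CL075) and Abca1 lower (374 ± 35.0 and 811 ± 81.4 CPM). Of the serine, one-carbon and ATF4 target genes, 2 of 22 were called higher and 12 lower, among them the cationic amino acid transporter gene Slc7a1 (-3.01 (SE 0.16)) and asparagine synthetase, Asns (-1.54 (SE 0.15)). Psat1 (1.53 (SE 0.08)) and Nupr1 (1.61 (SE 0.10)) were higher. Genes of the tricarboxylic acid cycle (0 higher and 5 lower of 24) had a median of 0.02. Those of the respiratory chain and ATP synthase (2 higher and 0 lower of 28) had a median of 0.25. Beside the 23.6% and 24.5% over all genes, the lower calls of the tricarboxylic acid cycle lay near that share and the other counts below it. With library totals as the scale 12 tricarboxylic acid cycle genes and 5 respiratory chain genes were called lower.

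Most genes that build ribosomes were lower with poly(I:C), while the ribosomal proteins were not called. Of the ribosome biogenesis genes, 2 of 30 were called higher and 25 lower (median -1.60). Nop58, a core protein of small nucleolar RNA particles, had 7.02, 8.40, 7.86, 6.42 and 7.09 CPM in the poly(I:C) libraries, against 47.3, 50.5, 51.7, 44.4 and 52.7 CPM in the CL075 libraries. Control lay between them (20.8 ± 1.93 CPM), and the log2 difference was -2.75 (SE 0.08, edgeR adjusted p = 1.2e-13). The RNA polymerase I subunit gene Polr1b averaged 1.36 ± 0.172 CPM with poly(I:C) and 11.2 ± 1.19 with CL075, Nop56 14.2 ± 0.584 and 56.0 ± 3.64 CPM, and the rRNA helicase gene Ddx21 47.2 ± 4.78 and 143 ± 12.9 CPM. Wdr43 (0.97 (SE 0.05)) and Noc4l (1.72 (SE 0.06)) were the higher ones. Of 35 cytosolic ribosomal protein genes 0 were called in either direction, with differences from -0.10 for Rpl18 to 0.51 for Rps24. Of these 35, 2 were called lower with library totals as the scale. Of the aminoacyl-tRNA synthetase genes, 3 of 20 were called higher and 10 lower. Iars averaged 14.6 ± 1.32 CPM with poly(I:C) and 81.8 ± 11.8 with CL075, whereas Wars, which interferon-γ is known to induce, was higher (211 ± 7.90 and 42.9 ± 1.96 CPM). Rars (1.82 (SE 0.06)) and Kars (1.08 (SE 0.05)) were higher as well.

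Compared with CL075, genes of DNA replication were more often higher than lower with poly(I:C), and genes of mitosis more often lower. Of the DNA replication genes, 13 of 37 were called higher and 3 lower (11 and 8 with library totals as the scale), beside 23.6% and 24.5% of all genes. Pcna, the sliding clamp, averaged 557 ± 61.0 CPM with poly(I:C), 147 ± 10.2 with CL075 and 133 ± 13.5 in control cells, and Mcm6 (2.37 (SE 0.07)), Mcm10 (2.52 (SE 0.09)) and Rfc3 (2.73 (SE 0.07)) were higher. Mcm2 (-0.35 (SE 0.16)), Mcm5 (0.28 (SE 0.09)) and Mcm7 (-0.28 (SE 0.10)), which form 1 helicase with Mcm6, were not called, and Mcm3 was lower (-0.61 (SE 0.08)), though not called without CL075 replicate 1 (-0.55). Of the mitosis genes, 2 of 30 were called higher and 14 lower (2 and 27 with library totals as the scale). Cdc20, an activator of the anaphase-promoting complex, averaged 1.09 ± 0.203 CPM with poly(I:C) and 6.54 ± 0.977 with CL075, Mki67 was not called (-0.56 (SE 0.09)) but passed the fold threshold without CL075 replicate 3 (-0.58) or 5 (-0.61) or poly(I:C) replicate 3 (-0.60), and Tpx2 (2.70 (SE 0.08)) and Cenpe (1.82 (SE 0.06)) were higher. Ccnd1, cyclin D1, had 486, 589.8, 571, 508 and 559 CPM in the poly(I:C) libraries, against 18.5, 20.6, 27.1, 27.2 and 18.1 CPM in the CL075 libraries and 30.5 ± 3.72 CPM in control cells (log2 difference 4.60 (SE 0.12, edgeR adjusted p = 8.7e-14)). The cyclin genes Ccnd2 (3.61 (SE 0.16)) and Ccne1 (3.07 (SE 0.11)) and the retinoblastoma relative Rbl1 (3.70 (SE 0.06)) were higher, and Rb1 (-1.22 (SE 0.07)) and E2f1 (-1.32 (SE 0.10)) were lower. Of 28 DNA repair genes 6 were called higher and 8 lower, near the shares over all genes. Atm, the kinase that senses DNA breaks, averaged 154 ± 8.85 CPM with poly(I:C) and 8.95 ± 1.37 with CL075, on opposite sides of control (26.6 ± 1.18 CPM).

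Clock and autophagy genes were more often called lower than higher with poly(I:C), while the calls of chromatin enzymes lay near those of all genes. Of 39 histone and DNA modifying enzymes 8 were called higher and 12 lower, beside 23.6% and 24.5% of all genes. Setdb2, a methyltransferase known to respond to interferon, averaged 383 ± 31.0 CPM with poly(I:C) and 33.5 ± 2.74 with CL075, and Hdac1 was higher (1.33 (SE 0.06)) where Hdac2 was lower (-1.01 (SE 0.06)). The histone demethylases Kdm6b (-1.96 (SE 0.11)) and Kdm5b (-1.87 (SE 0.09)) were lower. Of the circadian clock genes, 2 of 16 were called higher and 11 lower (median -1.52), the same on every scale but library totals (12 lower). Clock averaged 20.8 ± 1.11 CPM with poly(I:C), 58.5 ± 4.78 with CL075 and 45.7 ± 1.99 in control cells, Per1 differed by -1.61 (SE 0.10), Per2 by -2.27 (SE 0.15), Cry1 by -1.15 (SE 0.07) and Cry2 by -2.18 (SE 0.11). Their partner Arntl was not called (0.19 (SE 0.06)), and Nfil3 (1.65 (SE 0.09)) and Nr1d2 (1.45 (SE 0.07)) were higher. Of 33 autophagy genes 3 were called higher and 11 lower (median -0.14), beside 23.6% and 24.5% of all genes. With library totals as the scale 0 were higher and 20 lower. The lower ones included Atg9a (-1.43 (SE 0.05)), Ulk1 (-0.91 (SE 0.08)), Atg5 (-0.72 (SE 0.05)) and the cargo receptor gene Sqstm1 (-1.03 (SE 0.11)), while the receptor gene Optn was higher (1.12 (SE 0.08)). Becn1 (0.17 (SE 0.05)) and Map1lc3b (-0.02 (SE 0.05)) were not called.

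Receptors and proteases of the macrophage surface differed gene by gene. Mertk, which takes up dying cells, averaged 231 ± 12.3 CPM with poly(I:C) and 24.5 ± 3.87 with CL075, on opposite sides of control (104 ± 7.43 CPM), and its relative Axl averaged 186 ± 16.03 and 18.8 ± 4.003 CPM. The scavenger receptor gene Marco was lower at 182 ± 24.5 CPM with poly(I:C) and 637 ± 100.1 with CL075, against 127 ± 19.1 CPM in control cells. The complement genes C3 (2.34 (SE 0.07)) and Cfb (1.98 (SE 0.12)) and the Fc receptor genes Fcgr4 (2.18 (SE 0.12)) and Fcgr1 (1.42 (SE 0.10)) were higher, Fcgr2b was not called (0.01 (SE 0.07)), and Cd55, which restrains complement, was lower (-2.50 (SE 0.07)). The gelatinase gene Mmp9 was lower at 5.30 ± 2.35 CPM with poly(I:C) and 47.8 ± 14.3 with CL075, and the collagenase gene Mmp13 was higher at 2173 ± 86.8 and 374 ± 77.9 CPM. Hdc, which makes histamine, averaged 52.6 ± 3.70 CPM with poly(I:C) and 5.51 ± 1.05 with CL075. Hdc is also a mast cell and basophil gene. The sum of the 10 genes on that list, Hdc included, was 51.8 to 59.9 CPM with poly(I:C) and 6.16 to 8.57 with CL075. The sum of 12 neutrophil genes, most of it from Csf3r, S100a8 and S100a9, was 271.6 to 416.6 CPM with poly(I:C), 388 to 505.5 with CL075 and 100.9 to 173.5 in control cells, and its part in the results was not tested.

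**Figure D5:**
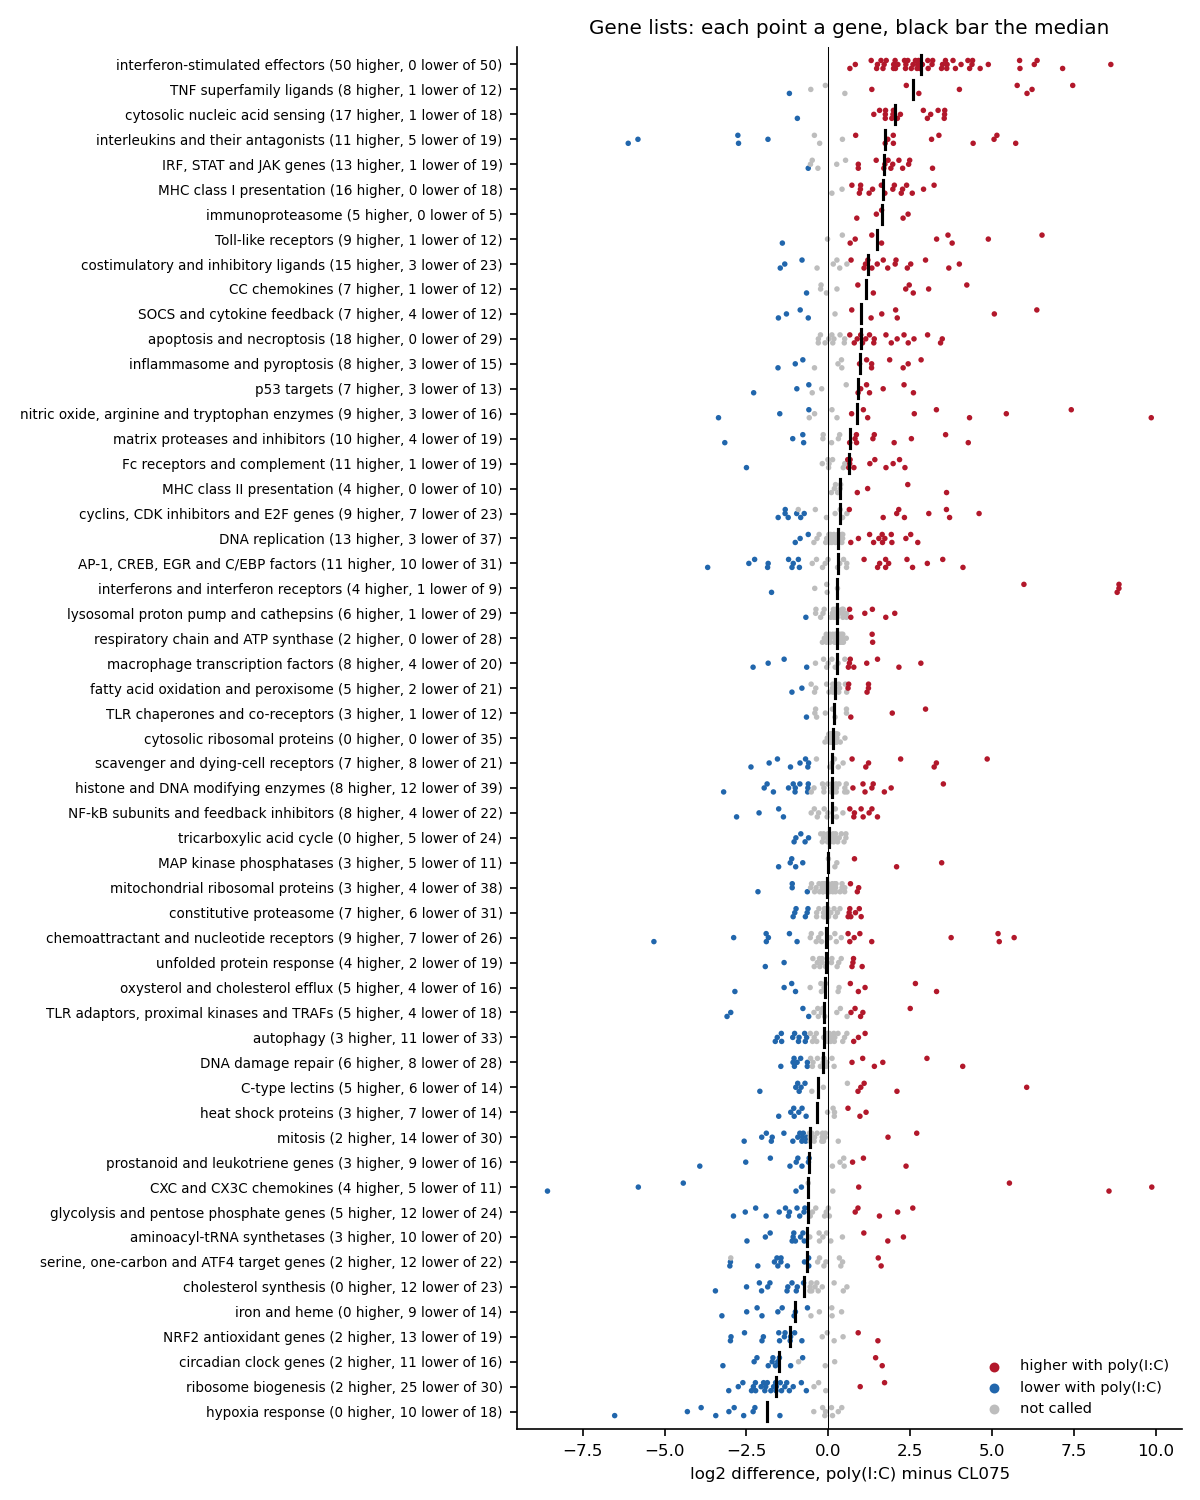
Each row is a gene list, each point the log2 difference of poly(I:C) minus CL075 of 1 of its tested genes (red called higher, blue called lower, grey not called) and the black bar the median of the list, with the counts of calls in the row's label. The interferon-stimulated effectors lie wholly to the right of 0 (50 of 50 called higher), the cytosolic ribosomal proteins sit in a narrow band around 0, and the ribosome biogenesis and hypoxia response lists lie mostly to the left.

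Some of these genes may share reads with other genes. The GBP, IFIT, Tgtp, Ifna, Serpina3 and H2 families hold near-identical copies, and how their reads were divided among the copies is not stated. Exons overlap those of a gene on the other strand in Kctd12 (62.8% of its exon bases), Fosl1 (57.2%), Becn1 (43.9%), Tmc3 (43.9%), Cxcl11 (41.7%), Ccnd1 (23.4%), Bnip3 (22.2%), Dusp5 (22.1%) and Cebpb (20.7%). The overlap was between 10.1% in Il27 and 18.1% in Nfkb2 for these 2 genes and for Sqstm1, Cebpd, Rb1, Angpt1, Cd274, Ch25h, Il1a, Myd88 and Keap1. Exons overlap those of another gene on the same strand in Cfb (79.5%), Gbp10 (46.3%), Atg9a (31.8%), Ticam2 (14.5%) and Pfkm (10.2%). The kit marks the strand, but whether the counting used it is not stated, so reads of overlapping partners may be mixed.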

How the data were processed

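mRNA libraries of 15 BMDM samples were made with a TruSeq stranded kit from 2 µg of total RNA and sequenced for 75 cycles. The authors deposited 1 table per ligand, with the raw read counts per gene, TPM and RPKM of its treated and control libraries. By the study's methods these come from CLC Genomics Workbench, which trimmed the reads, mapped them to GRCm38.p6 with up to 5 hits per read and counted them. The strand setting is not given. The submitters' notes also name bcl2fastq, HISAT2, featureCounts and edgeR, which the study used in a second pipeline whose result tables were not used here. Control counts were the same in both tables. The deposited TPM values were used only as a floor on calls, and the 20 RPKM columns and the authors' own fold changes and p-values were not used.

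Counts were fitted in edgeR 4.0.16 (R 4.3.3) with the quasi-likelihood test on the 10 treated libraries, after filterByExpr, with TMM factors from all 15 libraries and Benjamini-Hochberg adjustment over 11360 genes. The SE is the log2 difference divided by the square root of F and understates counting error where a group has few counts. Each ligand against control came from 1 fit over all 15 libraries. For library shares, two-sided exact permutation tests were run in scipy 1.17.1. These tests took the libraries as independent and did not pair them by replicate number. In simulated counts 11360 genes took their CL075 means in both groups, with the sizes of the treated libraries. Some well-expressed genes were then changed. Of 67 genes changed by 1.5-fold, which is the fold a call must exceed, 43.3% were called. All genes changed by 2-fold or 4-fold were called, and so were 2 unchanged genes. The simulation held neither the poly(I:C) means nor the TPM floor. It therefore cannot show how calls fare when the scale shifts between groups.

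Libraries with the same replicate number deviated together. The correlations of their deviations from the group means were 0.26, 0.37, 0.42, 0.20 and 0.29, all over the 0.1 that was required, so the replicate number was also fitted as a block. Numbers 4 and 5 were less set apart. Poly(I:C) replicate 4 had 0.209 with CL075 replicate 5, above the 0.203 with its own number, and poly(I:C) replicate 5 had 0.111 with CL075 replicate 4. The labels do not say what the number stands for.

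The gene lists, promoter motifs and tests were chosen with earlier results of these data known. Named genes are members of these lists, the 15 called genes of largest fold in each direction whose mean CPM reached 10 and whose groups did not overlap, model names left out, and the 10 called genes in each direction with the largest CPM difference. A few genes that these rules name are not reported here. Genes outside these rules are named as chosen after their values were seen. The bases before RefSeq starts were read from a table of GRCm38.p6 promoter windows and exon overlaps from GENCODE vM21. Alternatives covered the scale, the test (DESeq2 1.42.0, glmTreat), the libraries in the fit, the filters, the block and each library left out.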

Additional observations from a re-analysis of the deposited data

Results flagged for a closer look

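Among 210 groups of 5 libraries looked at (91 genes, 5 library measures and 9 marker sums, in both treated groups), 7 had a library whose distance from the rest exceeded the critical value of Dixon's test, which chance alone passes in about 1 of 20 groups. Poly(I:C) replicate 3 stood apart in 3 of them. Its 8 erythroid genes, led by the globins Hba-a2 and Hbb-bs, summed to 39.91 CPM, against 0.253 to 0.515 CPM in the other 4 libraries of the group. Its Il1b level was 36.47 CPM, against 22.4 to 26.4 CPM, and its Ifngr1 level was 26.15 CPM, against 24.2 to 24.6 CPM. In CL075 cells, Saa3 was at 4248 CPM in replicate 4, against 3531 to 3712 CPM in the others, and the summed B cell genes were at 13.71 CPM there, against 10.8 to 11.4 CPM. Fpr1 was at 1041 CPM in CL075 replicate 2, against 951.1 to 971 CPM, and Marco at 810.7 CPM in CL075 replicate 5, against 564 to 632 CPM. In Il1b, Ifngr1, Saa3, Fpr1 and Marco the library set apart still lay on its own group's side of every library of the other ligand.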

How the results depend on the processing

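The number of genes called higher stayed between 2082 and 2809 and the number called lower between 2271 and 3855 in every alternative but 1. With library totals in place of TMM factors, 1623 genes were called higher and 5610 lower. Leaving out 1 library at a time gave 2669 to 2697 higher and 2742 to 2803 lower. With the replicate number as a block, 2685 were called higher and 2791 lower, and among the 276 genes named the block changed no call. DESeq2 called 2727 and 2712, and glmTreat 2334 and 2271. Of the named genes, 243 were called and 33 were not. No called one changed direction under any alternative run. Library totals took the call from 17 of the 243 and gave one to 20 of the 33, all of them lower with poly(I:C). Hprt did so for 7 (Acod1, Bst2, Cd4, Ifitm3, Il12b, Pfkm and Tnfaip3) and 8, and upper-quartile factors for 3 (Acod1, Cd4 and Ifitm3) and 7. With library totals Atf3, B2m, Cflar, H2-K1, Kars, Myd88, Optn, Pfkp, Tbk1 and Wdr43 lost their calls as well, and with glmTreat Ccl9, Fth1, Ifitm3, Mcm3 and Pf4 did. Of the library measures, the differences in the share of the mitochondrial mRNAs (-0.612 to -0.518 percentage points) and of the 100 most abundant genes (5.31 to 5.67) kept an adjusted p under 0.05 in the exact permutation test without any 1 library. Those of the 10 most abundant genes (0.442 to 0.643, adjusted p = 0.0529 to 0.0992) did not, nor did the number of genes with a count (160 to 247 more with poly(I:C)) except without CL075 replicate 5. In each case fewer libraries raise the smallest p that the test can give. Depth limits the genes with few counts in 1 group. Folds are given as bounds where a group had 0 counts, and the log2 differences of genes with a few, such as Ido1 and Cxcl3, depend on the fit's prior count. Changes of 1.5-fold lie at the threshold of a call. The 43.3% of such simulated cases that were called therefore mostly reflects that threshold and does not measure power. A gene not called may differ by that much. The dose of each ligand cannot be told apart from the ligand itself.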
